A study of Mus musculus with 12 samples.

Results

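The cadherins are calcium-dependent adhesion molecules of the cell surface, and the genes described here are the mouse genes whose symbol is Cdh followed by a number, or Pcdh followed by a number with an optional x. That rule on names found 35 genes, 23 Cdh and 12 Pcdh, among the 41214 genes of the count table. It takes in the classical cadherins and the non-clustered protocadherins. It also takes in several Cdh genes outside the classical class, among them Cdh13, Cdh16, Cdh17, Cdh23 and Cdh26, and Pcdh15. Each gene was followed through 12 RNA-seq libraries made from endothelium that had been sorted out of embryonic mouse ventricles.

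There were 2 coronary and 2 endocardial libraries at E17, and 4 coronary and 4 endocardial libraries at E13. The E17 embryos, dissected at E17.5, carried the Nes-Gfp(Tg/0) and Nes-CreER(Tg/0) transgenes with R26(tom/+), and 0.1 ug of tamoxifen had been given at E15.5, per the series' design text. The E13 embryos, dissected at E13.5, carried Nes-gfp(Tg/0) alone, with no tamoxifen stated. All cells were viable, Ter119-, CD45- and CD31+, which sets red cells and leukocytes aside and keeps endothelium. That text describes an arterial and capillary gate (Emcn-low, Tomato+) and a venous gate (Emcn-low, Tomato-, GFP-low) for E17 coronary cells, and does not say which gave the libraries. E17 endocardial cells were GFP+, E13 coronary cells were GFP+, and E13 endocardial cells were GFP-low and Emcn-high. Nes is the gene of nestin, an intermediate filament, whose regulatory sequence drives the GFP and the tamoxifen-inducible Cre, and Emcn encodes endomucin, a sialomucin of venous and endocardial endothelium. Stage, genotype, tamoxifen, batch and the sort gates change together between E17 and E13 and cannot be told apart. Nothing in the labels says that libraries of a group came from separate litters, so p-values here measure spread among these libraries alone, which may be partly technical.

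Classical cadherins join neighbouring cells by binding the same cadherin on the other cell, and their cytoplasmic tails bind p120 and beta-catenin, which link the junction to actin through alpha-catenin. In endothelium the junctional cadherin is VE-cadherin, the product of Cdh5, which holds vessels closed. Protocadherins share the extracellular repeats but not the catenin-binding tail, and the non-clustered ones are best known for sorting and guiding cells in the developing nervous system. The endocardium lines the heart chambers, and the coronary endothelium forms the vessels inside the wall.

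Total expected counts were 14973633 to 19168912 per library at E17 and 17395783 to 27360653 at E13, as the deposited table shows. Summed CPM of 9 pan-endothelial marker genes was 8780.4 to 10199.8 in E17 coronary, 6818 to 6960.4 in E17 endocardial, 4944 to 6570.3 in E13 coronary and 6606 to 7376 in E13 endocardial libraries, so all 12 libraries held endothelial RNA. CPM, the unit of level used below, is the usual scaling of counts to a common library size, here after TMM. A sum of 6 endocardial markers stood at 171 to 174 CPM in E17 coronary against 4717 to 5043 CPM in E17 endocardial libraries, and at 1027 to 1316 CPM in E13 coronary against 3862 to 4118 CPM in E13 endocardial libraries. Markers of other cells were present too, with 10 fibroblast genes summing to 4874 and 2220.2 CPM in E17 coronary replicates 1 and 2, 2234 to 2474 CPM in E17 endocardial, 2747, 5389, 7169 and 4997 CPM in E13 coronary replicates 1 to 4, and 1850.1 to 2082 CPM in E13 endocardial libraries. The E13 coronary libraries therefore differ among themselves in fibroblast RNA, and so do the E17 coronary libraries. None of these 10 genes was at 0 in any library.

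Of the 35 genes, 13 reached a mean of at least 10 CPM in some group, 9 had their highest group mean between 1 and 10 CPM, and 13 stayed under 1 CPM in every group. The low-count filter kept 25 genes for testing, 14 Cdh and 11 Pcdh. A gene that passed the filter only through the group where it is high had to differ between groups, so the counts of changed genes below describe these 25 and are no support for a pattern of the family. All tests are edgeR quasi-likelihood tests over the 15171 genes tested, with Benjamini-Hochberg adjusted p and a threshold of 0.05. A value after ± on a log2 fold change is an approximate SE. It is the absolute fold change divided by the square root of the test's F statistic. For genes with few counts it is rough. For Cdh6, coronary over endocardial, it was 0.81 at E13, 2.28 at E17 and 0.61 for their difference. The coronary effect is the log2 fold change of coronary over endocardial libraries of a stage, and the stage change is that of E17 over E13 libraries of a population.

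Cdh5 made up most of the family's RNA in every group. Per kilobase of exon, Cdh5 took 83.1% of the summed level of the 35 genes in E17 coronary, 65.3% in E17 endocardial, 75.8% ± 3.12 in E13 coronary and 72.5% ± 0.397 in E13 endocardial libraries (means, with SD for n = 4). The gene after it by level per kilobase was Pcdh12 in E17 coronary libraries, at 5.37%, and Cdh11 in the other groups, at 26.3% in E17 endocardial, 6.17% in E13 coronary and 19.9% in E13 endocardial libraries. Pcdh1 followed closely in both coronary groups, at 5.32% in E17 and 5.95% in E13 libraries. Summed over the 35 genes, the level was 989.6 and 1051 CPM per kilobase in E17 coronary, 619 and 633 in E17 endocardial, 486 to 642 in E13 coronary and 645 to 704 in E13 endocardial libraries.

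**Figure D1:**
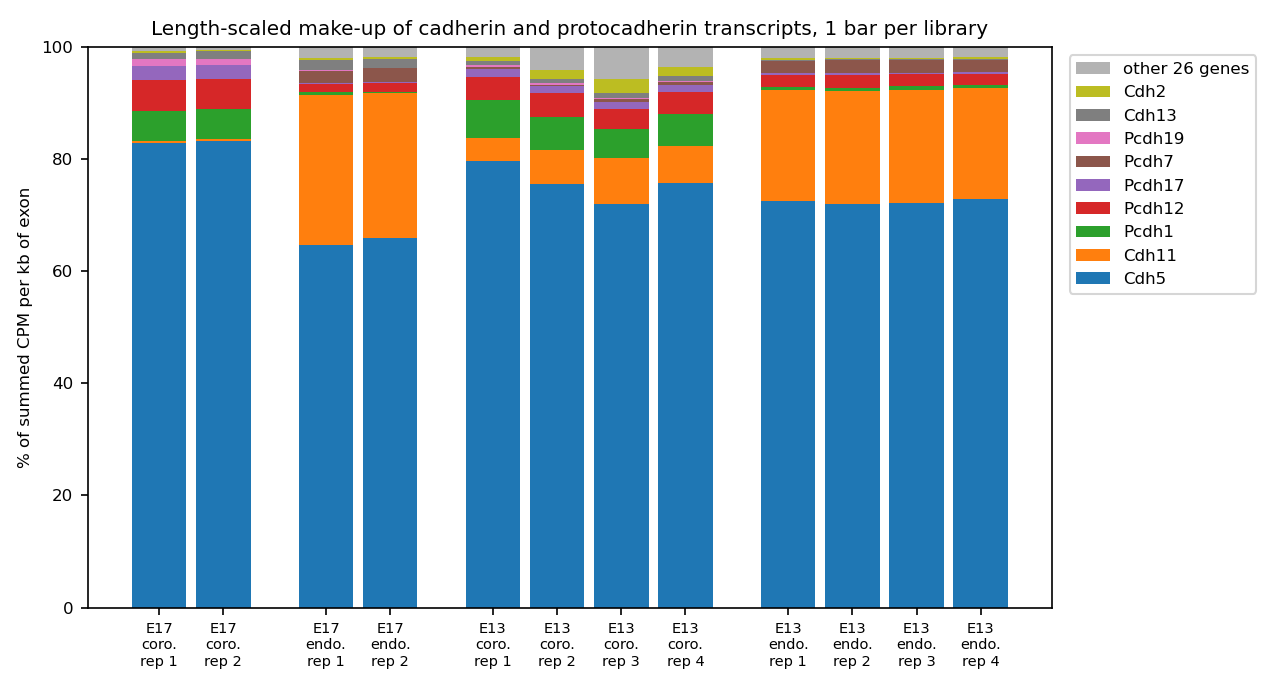
Share of the summed level per kilobase of exon (percent, vertical axis) taken by each of 9 cadherin and protocadherin genes and by the other 26 genes together, 1 stacked bar per library with E17 libraries to the left. Cdh5 is the tallest block in all 12 bars, and the Cdh11 block is thick in the endocardial bars and thin in the E17 coronary bars.

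**Figure D2:**
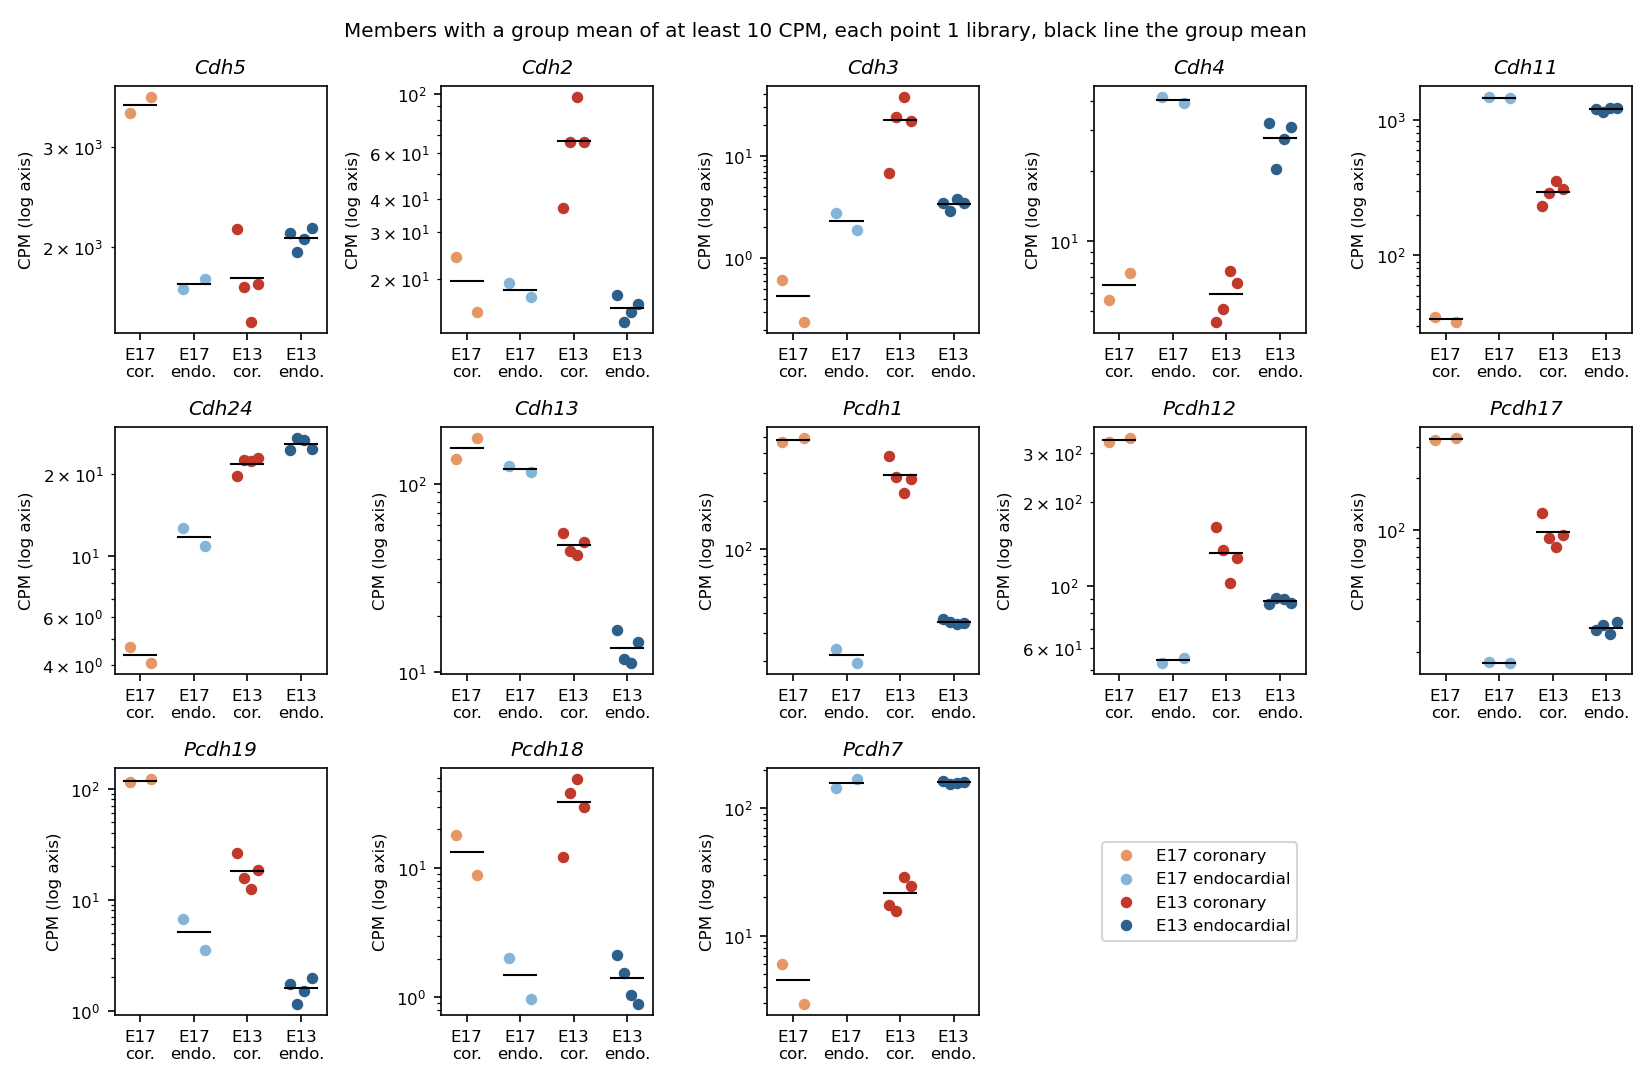
CPM of each of the 13 genes that reached 10 CPM, 1 panel a gene with its own logarithmic vertical axis, 1 point a library and a horizontal line at the group mean, for E17 coronary and endocardial (2 libraries each) and E13 coronary and endocardial (4 each). Cdh11 and Pcdh7 sit lower in coronary than in endocardial libraries at both stages, and Pcdh1, Pcdh17 and Pcdh19 sit higher.

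Cdh5 (ENSMUSG00000031871, GRCm38 chr8:104101625-104144511) had 3448 and 3679 CPM in the E17 coronary libraries, against 1685 and 1751 CPM in the E17 endocardial libraries. At E13 it had 2152, 1697, 1473 and 1719 CPM in coronary libraries, against 2111, 1955, 2061 and 2158 CPM in endocardial libraries. The groups stand apart at E17, while at E13 coronary replicate 1 lies inside the endocardial range. The E17 coronary effect was a log2 fold change of 1.05 ± 0.13 (edgeR adjusted p = 2.57e-05), and at E13 it was -0.23 ± 0.09 (adjusted p = 0.0415). That small E13 difference lost its call when any 1 of 10 of the 12 libraries was left out, with an adjusted p of 0.0503 to 0.136 without E17 coronary replicate 1 or 2, E17 endocardial replicate 1 or 2, E13 coronary replicate 2, 3 or 4, or E13 endocardial replicate 1, 3 or 4. It was -0.14 without E13 coronary replicate 3, and its adjusted p was 0.0558 with DESeq2 size factors and 0.0761 with the 2 groups fitted alone. Between stages Cdh5 rose in coronary libraries, E17 over E13, by 1.02 ± 0.11 (adjusted p = 9.62e-06), and was -0.27 ± 0.11 in endocardial libraries (adjusted p = 0.0904). The endocardial value crossed the threshold when 1 library was left out, with an adjusted p of 0.00733 to 0.0329 without E13 coronary replicate 1 or 3. It also crossed it with DESeq2 (adjusted p = 0.0359) and with the 2 groups fitted alone (0.00296). The difference between the E17 and E13 coronary effects was 1.29 ± 0.16 (adjusted p = 7.6e-05). Among the 9 pan-endothelial markers, 7 were higher and 1 lower in E17 against E13 coronary libraries (median log2 fold change 0.82). Of all genes, 24.6% were higher and 25.6% lower there. The part of endothelial RNA content in the coronary rise of Cdh5 was not tested. In bulk libraries such as these, fewer cells of a type and less RNA per cell cannot be told apart.

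Cdh11 (ENSMUSG00000031673, chr8:102632095-102785642), a type II cadherin first known from osteoblasts and mesenchyme, had the largest endocardial level after Cdh5. It read 35.04 and 32.3 CPM in E17 coronary libraries against 1473 and 1457 CPM in E17 endocardial libraries. At E13 the values were 231, 287, 352 and 311 CPM in coronary libraries against 1215, 1153, 1217 and 1231 CPM in endocardial libraries. No coronary library reached an endocardial one at either stage. The log2 fold change was -5.44 ± 0.17 at E17 (edgeR adjusted p = 5.34e-10) and -2.03 ± 0.10 at E13 (adjusted p = 1.24e-08), a difference of -3.42 ± 0.18 (adjusted p = 1.73e-07). The stage change lay in coronary libraries, with a log2 fold change of -3.13 ± 0.14 at E17 against E13 (adjusted p = 1.81e-08), while endocardial libraries gave 0.28 ± 0.12 (adjusted p = 0.0879, with 0.00779 to 0.0335 without E13 coronary replicate 1 or 3 and 0.000907 with the 2 groups fitted alone). Set against VE-cadherin per kilobase, Cdh11 was 0.00480 and 0.00414 of the Cdh5 level in E17 coronary, 0.413 and 0.393 in E17 endocardial, 0.0507 to 0.113 in E13 coronary and 0.269 to 0.279 in E13 endocardial libraries. Cdh11 is also a gene of fibroblasts, and its lowest and highest E13 coronary libraries, replicate 1 and replicate 3, were those of the fibroblast sum. In the E17 coronary pair, Cdh11 was only 0.12 log2 higher in replicate 1 than in replicate 2. The fibroblast markers were 0.72 to 1.19 log2 higher there. The endocardial markers fell in coronary libraries too, 6 of 6 being lower at E17 against E13 (median log2 fold change -3.43), with a sum of 171 to 174 CPM in E17 coronary against 1027 to 1316 CPM in E13 coronary libraries. The part of fibroblast and endocardial RNA in the Cdh11 values was not tested.

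Cdh24 (chr14:54631231-54641364), another type II cadherin, had 4.66 and 4.07 CPM in E17 coronary against 12.7 and 10.9 CPM in E17 endocardial libraries. At E13 it had 19.7, 22.6, 22.4 and 22.9 CPM in coronary against 24.6, 27.1, 26.7 and 24.8 CPM in endocardial libraries. Both populations were lower at E17 than at E13, at -2.33 ± 0.12 in coronary (edgeR adjusted p = 3.1e-08) and -1.13 ± 0.10 in endocardial libraries (adjusted p = 9.41e-06). The coronary effect was -1.44 ± 0.13 at E17 (adjusted p = 1.58e-06) and -0.24 ± 0.08 at E13 (adjusted p = 0.017), with a difference of -1.20 ± 0.15 (adjusted p = 7.72e-05). The small E13 effect lost its call without single libraries, its adjusted p being 0.0509 to 0.082 without E13 coronary replicate 1, or E13 endocardial replicate 2.

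Among the type I classical cadherins, Cdh4, Cdh2 and Cdh3 passed 10 CPM, while Cdh1, the epithelial E-cadherin, gave 1 count in all libraries together. Cdh4 encodes R-cadherin, first described in retina (chr2:179442431-179899373). It had 5.55 and 7.31 CPM in E17 coronary against 41.5 and 39.02 CPM in E17 endocardial libraries, and 4.49, 5.11, 7.41 and 6.56 CPM in E13 coronary against 31.98, 20.4, 27.4 and 30.9 CPM in E13 endocardial libraries. Every coronary library was below every endocardial one, and the coronary effects of -2.64 ± 0.25 at E17 (edgeR adjusted p = 2.64e-06) and -2.23 ± 0.17 at E13 (adjusted p = 4.12e-07) had a difference of -0.41 ± 0.30 that did not pass the test (adjusted p = 0.334). Between stages, E17 over E13, Cdh4 changed by 0.54 ± 0.19 in endocardial libraries (adjusted p = 0.0454) and by a value of 0.13 ± 0.23 in coronary libraries (adjusted p = 0.666). The endocardial stage change did not hold without single libraries, with an adjusted p of 0.0514 to 0.215 without E17 endocardial replicate 1 or 2, E13 coronary replicate 4, or E13 endocardial replicate 2, 3 or 4.

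Cdh2 encodes N-cadherin, found in neurons, cardiomyocytes and mesenchyme as well as in endothelium, and lies on chromosome 18. It had 24.1 and 14.97 CPM in E17 coronary against 19.2 and 16.98 CPM in E17 endocardial libraries. In E13 coronary libraries it had 37.1, 65.96, 97.6 and 66.1 CPM, against 17.3, 13.7, 14.99 and 16.1 CPM in E13 endocardial libraries. The E17 groups overlap and the E13 groups do not. Coronary over endocardial, the log2 fold change was 0.10 ± 0.36 at E17 (edgeR adjusted p = 0.83) and 2.10 ± 0.24 at E13 (adjusted p = 1.19e-05), a difference of -1.997 ± 0.43 (adjusted p = 0.00383). Cdh2 fell in E17 coronary against E13 coronary libraries, at -1.78 ± 0.31 (adjusted p = 0.000514), with endocardial libraries at 0.22 ± 0.31 (adjusted p = 0.635).

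Cdh3, the gene of P-cadherin (chr8:106510891-106557297), had 0.617 and 0.240 CPM in E17 coronary against 2.78 and 1.88 CPM in E17 endocardial libraries. Its E13 values were 6.71, 23.7, 37.2 and 21.8 CPM in coronary against 3.42, 2.88, 3.75 and 3.45 CPM in endocardial libraries. It was thus lower in coronary libraries at E17 and higher at E13, with no overlap at either stage. Its log2 fold change was -2.47 ± 0.87 at E17 (edgeR adjusted p = 0.0312) and 2.73 ± 0.40 at E13 (adjusted p = 8.66e-05), and the difference was -5.20 ± 0.93 (adjusted p = 0.00111). The exact intervals given here and below cover counting error only, not the spread among libraries. The E17 effect rests on 13 coronary against 80 endocardial counts, a CPM ratio of 0.177 (exact 95% interval 0.0901 to 0.319). It fell short of the threshold, with an adjusted p of 0.0621 to 0.186 without E17 coronary replicate 1 or 2, or E17 endocardial replicate 1. Coronary Cdh3 changed between stages by -5.72 ± 0.73, E17 over E13 (adjusted p = 4.25e-05), with -0.52 ± 0.55 in endocardial libraries (adjusted p = 0.519).

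Both Cdh2 and Cdh3 had their lowest and highest E13 coronary libraries where the fibroblast sum had them, in replicate 1 and replicate 3. In the pair of E17 coronary libraries both were higher in replicate 1, which had the higher fibroblast sum, by 0.69 log2 for Cdh2 and 1.37 log2 for Cdh3. The part of fibroblast RNA in their E13 coronary effect was not tested.

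Cdh13 (chr8:118283733-119324921) encodes T-cadherin, which is tied to the membrane by a lipid anchor in place of a tail and binds adiponectin. It had 134 and 174 CPM in E17 coronary against 123 and 115 CPM in E17 endocardial libraries. At E13 it had 54.96, 44.00, 42.00 and 49.1 CPM in coronary against 16.8, 11.7, 11.2 and 14.5 CPM in endocardial libraries. E17 libraries of both populations were above all E13 libraries. The stage change, E17 over E13, was 3.13 ± 0.15 in endocardial (edgeR adjusted p = 1.27e-07) and 1.70 ± 0.14 in coronary libraries (adjusted p = 1.57e-06). Sums of lymphatic and of coronary capillary markers were also higher in E17 than in E13 endocardial libraries. Their part in the endocardial change of Cdh13 was not tested. The coronary effect was smaller at E17, 0.37 ± 0.17 (adjusted p = 0.0837), than at E13, 1.803 ± 0.13 (adjusted p = 3.04e-07), with a difference of -1.43 ± 0.22 (adjusted p = 0.000342). The E17 value passed the threshold with the batch, the label shared by 1 coronary and 1 endocardial library, as a block (0.36 ± 0.10, adjusted p = 0.0168), and its adjusted p was 0.0262 to 0.0485 without E17 coronary replicate 1, or E13 coronary replicate 1. The adjusted p was 0.0467 with DESeq2 and 0.0426 with the 2 groups fitted alone, and the fold change was 0.57 without E17 coronary replicate 1 and 0.18 without E17 coronary replicate 2.

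The protocadherins above 10 CPM were Pcdh1, Pcdh7, Pcdh12, Pcdh17, Pcdh18 and Pcdh19. Pcdh7 was lower in coronary libraries at both stages, and the others were higher at both. Pcdh1 and Pcdh7 belong to the delta-1 protocadherins, which have a longer extracellular part, and Pcdh17, Pcdh18 and Pcdh19 to the delta-2 group. Upstream sequence is shown for Pcdh17 and Pcdh19, which rose with stage in coronary libraries, and for Pcdh7, which fell there. Bases run 5′ to 3′ on the gene's strand, capitals mark CpG dinucleotides, and the sequences are from RefSeq on GRCm38.p6.
Pcdh17 (chr14:84443313-84443562, plus strand): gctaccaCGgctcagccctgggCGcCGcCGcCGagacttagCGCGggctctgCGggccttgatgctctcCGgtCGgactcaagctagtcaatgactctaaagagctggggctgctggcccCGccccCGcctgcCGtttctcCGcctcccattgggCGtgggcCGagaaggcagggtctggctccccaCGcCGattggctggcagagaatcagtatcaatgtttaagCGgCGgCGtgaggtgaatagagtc
Pcdh19 (chrX:133688994-133689243, minus strand): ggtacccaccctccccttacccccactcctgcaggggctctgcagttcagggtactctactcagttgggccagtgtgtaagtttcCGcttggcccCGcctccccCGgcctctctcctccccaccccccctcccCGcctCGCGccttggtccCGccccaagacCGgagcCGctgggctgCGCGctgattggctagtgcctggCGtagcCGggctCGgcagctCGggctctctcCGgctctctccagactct
Pcdh7 (chr5:57717831-57717966, plus strand): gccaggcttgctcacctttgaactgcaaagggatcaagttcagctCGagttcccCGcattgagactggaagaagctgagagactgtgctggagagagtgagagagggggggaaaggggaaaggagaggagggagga

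The first 2 stretches are the 250 bases before the RefSeq start and hold 21 and 16 CpG, in the order shown, and the Pcdh7 stretch is the 136 bases before the start of the GENCODE gene model and holds 2. RefSeq promoter windows of 300 bases, 250 before to 50 after the start, were found for 22 of the 35 genes and for 5 of the 13 above 10 CPM. Those windows held 26 CpG for Pcdh17, 18 for Pcdh19, 11 for Pcdh7, 23 for Pcdh18 and 30 for Cdh24, against a median of 7 over 32851 promoters. As many CpG as in the Pcdh17 window were held by 16.9% of promoters, and as many as in the Pcdh7 window by 41.4%. Searched on both strands, AGGAAG, the core of many ETS sites, was in none of the 5 windows and in 35.4% of all promoters. CACCTG, an E-box, was in the Pcdh7 window alone and in 20.2% of all, and TATAAA was in none of the 5 and in 13.6% of all. These matches describe letters in these windows only.

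Pcdh17 (ENSMUSG00000035566, chr14:84443563-84539002) is known for its place at synapses in the brain. It had 328 and 337 CPM in E17 coronary libraries against 17.4 and 17.3 CPM in E17 endocardial libraries. At E13 it had 125, 89.9, 79.8 and 93.6 CPM in coronary against 26.7, 28.6, 25.4 and 29.6 CPM in endocardial libraries. The groups stand far apart at both stages, with a coronary effect of 4.26 ± 0.18 at E17 (edgeR adjusted p = 4.29e-09) and 1.82 ± 0.12 at E13 (adjusted p = 8.06e-08). Pcdh17 rose by 1.77 ± 0.13 in coronary libraries, E17 over E13 (adjusted p = 4.38e-07), and fell in endocardial libraries with a change of -0.67 ± 0.16 (adjusted p = 0.0062). The endocardial fall had an adjusted p of 0.0519 without E17 endocardial replicate 1. The difference of effects was 2.44 ± 0.20 (adjusted p = 4.41e-06).

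Pcdh12 is named VE-cadherin-2 for its place at endothelial contacts, where it does not bind catenins, and lies on chromosome 18. It had 326 and 337 CPM in E17 coronary against 53.1 and 55.2 CPM in E17 endocardial libraries, and 162, 134, 103 and 126 CPM in E13 coronary against 85.99, 90.5, 89.7 and 87.00 CPM in E13 endocardial libraries. The lowest E13 coronary library, replicate 3, was above the highest endocardial one. The coronary effect was larger at E17, at 2.62 ± 0.15 at E17 (edgeR adjusted p = 5.11e-08) and 0.57 ± 0.10 at E13 (adjusted p = 0.000427), a difference of 2.05 ± 0.18 (adjusted p = 6.35e-06). As with Pcdh17, the stage changes ran opposite ways, 1.34 ± 0.12 in coronary (adjusted p = 2.32e-06) and -0.71 ± 0.13 in endocardial libraries (adjusted p = 0.00164).

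Pcdh1, also on chromosome 18 and known from airway epithelium, had 463 and 492 CPM in E17 coronary against 23.8 and 19.4 CPM in E17 endocardial libraries. Its E13 values were 381, 282, 225 and 275 CPM in coronary against 36.5, 34.9, 33.7 and 34.4 CPM in endocardial libraries. Every coronary library held several times the endocardial level. The log2 fold change was 4.46 ± 0.21 at E17 (edgeR adjusted p = 8.02e-09) and 3.06 ± 0.14 at E13 (adjusted p = 5.71e-09), with a difference of 1.40 ± 0.23 (adjusted p = 0.000598). Stage changes, E17 over E13, were 0.72 ± 0.15 in coronary (adjusted p = 0.00156) and -0.69 ± 0.17 in endocardial libraries (adjusted p = 0.0102, and 0.111 without E17 endocardial replicate 2).

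Pcdh19 (chrX:133582860-133688987), whose mutation causes an epilepsy in people, had 115 and 122 CPM in E17 coronary against 6.71 and 3.500 CPM in E17 endocardial libraries. It had 26.2, 15.7, 12.4 and 18.6 CPM in E13 coronary against 1.73, 1.15, 1.499 and 1.96 CPM in E13 endocardial libraries. Coronary libraries exceeded endocardial ones at both stages, and E17 libraries exceeded E13 libraries in both populations. The log2 fold change was 4.51 ± 0.33 at E17 (edgeR adjusted p = 3.36e-07) and 3.52 ± 0.27 at E13 (adjusted p = 4.07e-07). Their difference was 0.99 ± 0.44 (adjusted p = 0.11), and with batch as a block it was 0.99 ± 0.33, adjusted p = 0.0462. Its adjusted p was 0.0157 to 0.0459 without E17 endocardial replicate 1, or E13 coronary replicate 1, and 0.0397 with DESeq2. The stage change was 2.70 ± 0.23 in coronary (adjusted p = 1.63e-06) and 1.71 ± 0.37 in endocardial libraries (adjusted p = 0.00374, and 0.12 without E17 endocardial replicate 1). An antisense gene, Gm26851, shares 57 exon bases with Pcdh19, and reads of these libraries, which do not mark strand, cannot be told apart there.

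Pcdh18 (chr3:49743296-49757325) had 17.97 and 8.81 CPM in E17 coronary against 2.02 and 0.972 CPM in E17 endocardial libraries. At E13 it had 12.2, 38.5, 48.9 and 29.6 CPM in coronary against 2.14, 1.54, 1.05 and 0.892 CPM in endocardial libraries. The coronary libraries were above the endocardial ones at both stages but varied widely among themselves. The coronary effect was 3.12 ± 0.66 at E17 (edgeR adjusted p = 0.0017) and 4.47 ± 0.46 at E13 (adjusted p = 4.14e-06), with a difference of -1.35 ± 0.84 (adjusted p = 0.248). The coronary stage change of Pcdh18 was -1.28 ± 0.48 (adjusted p = 0.0411), with overlapping groups, and it did not hold without single libraries, at an adjusted p of 0.0503 to 0.295 without E17 coronary replicate 2, E13 coronary replicate 2, 3 or 4, or E13 endocardial replicate 2 or 3. It was -0.85 without E17 coronary replicate 2, and its adjusted p was 0.0599 with DESeq2 and 0.0942 with the 2 groups fitted alone. Endocardial libraries gave 0.07 ± 0.69 (adjusted p = 0.953). Pcdh18 followed the fibroblast sum, being 2.00 log2 higher in E13 coronary replicate 3 than in replicate 1, and 1.03 log2 higher in E17 coronary replicate 1 than in replicate 2. The part of fibroblast RNA in the Pcdh18 values was not tested.

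Pcdh7 (ENSMUSG00000029108, chr5:57717967-58133230), also called NF-protocadherin, had 6.03 and 2.94 CPM in E17 coronary against 144 and 168 CPM in E17 endocardial libraries. At E13 it had 17.3, 15.6, 28.9 and 24.4 CPM in coronary against 163, 154, 158 and 159.9 CPM in endocardial libraries. Endocardial levels overlapped between the stages and stood far above every coronary library. The coronary effect was -5.14 ± 0.31 at E17 (edgeR adjusted p = 6.63e-08) and -2.88 ± 0.18 at E13 (adjusted p = 7.19e-08), a difference of -2.26 ± 0.36 (adjusted p = 0.000463). Coronary Pcdh7 changed by -2.28 ± 0.30 between stages, E17 over E13 (adjusted p = 4.87e-05), with -0.02 ± 0.20 in endocardial libraries (adjusted p = 0.945). The coronary stage change was -2.87 without E17 coronary replicate 1. All 6 endocardial markers were lower in E17 coronary against E13 coronary libraries as well, and their part in the Pcdh7 change was not tested. The gene 4932441J04Rik on the opposite strand shares 2235 exon bases with Pcdh7, so reads of that stretch cannot be told apart without strand.

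**Figure D3:**
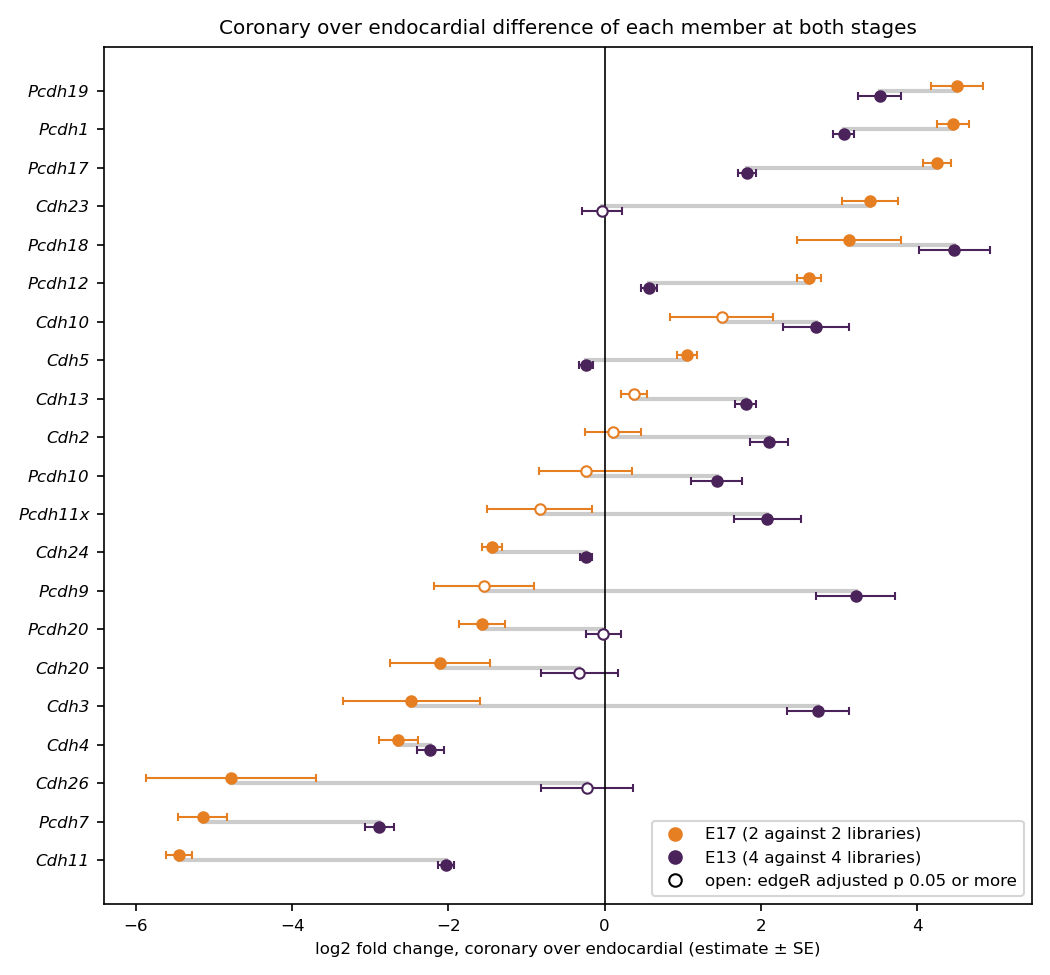
Log2 fold change of coronary over endocardial libraries (horizontal axis, bars show the approximate SE) for 21 genes whose highest group mean was at least 1 CPM, at E17 (2 against 2 libraries) and at E13 (4 against 4), with open circles where the edgeR adjusted p was 0.05 or more. Cdh6 is left out because E17 endocardial libraries had no count. Cdh11, Cdh4 and Pcdh7 are among those left of 0 at both stages, and Pcdh1, Pcdh17, Pcdh18 and Pcdh19 among those right of 0 at both. Cdh3, Cdh5, Pcdh9, Pcdh10, Pcdh11x and Cdh23 lie on opposite sides of 0 at the stages, Cdh23 with an E13 value of only -0.03.

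The 9 genes between 1 and 10 CPM were mostly E13 coronary genes or E17 endocardial genes. Cdh6, Cdh10, Pcdh10 and Pcdh11x were highest in E13 coronary libraries. Cdh6, a type II cadherin of the developing kidney and nervous system, had 0.227 ± 0.0669 CPM in E17 coronary libraries and none in E17 endocardial libraries, against 2.28 ± 1.38 CPM in E13 coronary and 0.0490 ± 0.0566 CPM in E13 endocardial libraries (SD, n = 2 at E17 and 4 at E13). At E13 that is 187 coronary against 4 endocardial counts, a CPM ratio of 53.1 with an exact 95% interval of 20.4 to 197. The E17 counts were 7 against 0, which is 2.53-fold a floor of 3 counts over the group, with an exact 95% lower limit of 1.57-fold. The edgeR adjusted p was 0.0797. That p was 0.0281 with batch as a block, 0.0285 with DESeq2 and 0.0244 without E13 coronary replicate 1. Cdh6 fell in coronary libraries by 3.31 on the log2 scale at E17 against E13 (adjusted p = 0.0101, and 0.0856 without E17 coronary replicate 2).

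Cdh10, a type II cadherin of the nervous system, had 0.826 ± 0.102 CPM in E17 coronary and 0.278 ± 0.301 CPM in E17 endocardial libraries, and 2.103 ± 0.790 CPM in E13 coronary and 0.318 ± 0.0819 CPM in E13 endocardial libraries (SD, n = 2 at E17 and 4 at E13). It was higher in coronary libraries at E13, by 2.70 ± 0.42 (edgeR adjusted p = 0.000143). Its E17 value was 1.497 ± 0.66 (adjusted p = 0.0762, and 0.00868 without E17 endocardial replicate 1), and it ranged over 0.75 to 3.55 with 1 library left out. The coronary stage change of -1.34 ± 0.50 had an adjusted p of 0.0411, and of 0.0514 to 0.174 without E17 coronary replicate 1 or 2, E13 coronary replicate 1 or 2, or E13 endocardial replicate 1 or 3. Pcdh10 and Pcdh11x, both best known from the developing brain, were likewise higher in coronary libraries at E13. Pcdh10 differed by 1.44 ± 0.33 in E13 coronary libraries (adjusted p = 0.0023) and by -2.45 ± 0.48 in coronary libraries between stages (adjusted p = 0.00114). Pcdh11x differed by 2.08 ± 0.42 in E13 coronary libraries (adjusted p = 0.00105) and by -2.34 ± 0.59 between coronary stages (adjusted p = 0.00545, and 0.0719 without E17 coronary replicate 2, the fold change being -3.62 without E17 coronary replicate 1). At E17 the coronary values were -0.24 ± 0.60 for Pcdh10 (adjusted p = 0.757) and -0.83 ± 0.67 for Pcdh11x (adjusted p = 0.323). The difference between stages in the coronary effect was -1.68 ± 0.68 for Pcdh10 (adjusted p = 0.0812, and 0.0439 without E13 coronary replicate 1) and -2.92 ± 0.79 for Pcdh11x (adjusted p = 0.0142, and 0.0714 to 0.0866 without E17 coronary replicate 2, or E17 endocardial replicate 1). Cdh6, Pcdh10 and Pcdh11x took the order of the fibroblast sum among E13 coronary libraries, and the part of that RNA was not tested.

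Cdh20, Cdh26 and Pcdh20 were highest in E17 endocardial libraries, and so was Pcdh9, by a narrow margin over E13 coronary libraries. Pcdh20 had 1.12 ± 0.0289 CPM in E17 coronary and 3.34 ± 0.406 CPM in E17 endocardial libraries, and 0.823 ± 0.0867 CPM in E13 coronary and 0.826 ± 0.119 CPM in E13 endocardial libraries (SD, n = 2 at E17 and 4 at E13). It rose in endocardial libraries by 1.997 ± 0.24, E17 over E13 (edgeR adjusted p = 7.54e-05), with 0.44 ± 0.27 in coronary libraries (adjusted p = 0.223). For Pcdh20 the coronary effect was -1.57 ± 0.29 at E17 (adjusted p = 0.000681) and -0.02 ± 0.22 at E13 (adjusted p = 0.959), a difference of -1.56 ± 0.37 (adjusted p = 0.00632). Pcdh9, a delta-1 protocadherin, had 1.08 ± 1.098 CPM in E17 coronary and 3.09 ± 0.882 CPM in E17 endocardial libraries, and 2.87 ± 1.12 CPM in E13 coronary and 0.298 ± 0.0878 CPM in E13 endocardial libraries. Its coronary effect was 3.21 ± 0.51 at E13 (adjusted p = 0.000152). At E17 the sign was the other, -1.55 ± 0.64 (adjusted p = 0.0607, with batch as a block -1.75 ± 0.56, adjusted p = 0.027), and the difference of -4.76 ± 0.83 passed the test (adjusted p = 0.000914). The adjusted p of the E17 effect was 0.00347 to 0.0388 without E17 coronary replicate 1, or E13 coronary replicate 1, and 0.048 with no filter on low counts. That effect was -3.32 without E17 coronary replicate 1 and -0.74 without E17 coronary replicate 2, and the difference was -6.56 without E17 coronary replicate 1 and -3.95 without E17 coronary replicate 2. Pcdh9 was 2.63 log2 higher in E17 coronary replicate 1 than in replicate 2, and 1.48 log2 higher in E13 coronary replicate 3 than in replicate 1, again the order of the fibroblast sum. Its endocardial stage change was 3.32 ± 0.57 (adjusted p = 0.000871), where that sum was 2234 to 2474 CPM at E17 and 1850.1 to 2082 CPM at E13.

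Cdh20, a type II cadherin, gave 11 counts in E17 coronary against 52 in E17 endocardial libraries, a CPM ratio of 0.23 with an exact 95% interval of 0.108 to 0.446. Its log2 fold change was -2.11 ± 0.64 at E17 (edgeR adjusted p = 0.0149, and 0.113 to 0.13 without E17 coronary replicate 2, or E17 endocardial replicate 2), and it was -3.62 without E17 coronary replicate 1 and -1.34 without E17 coronary replicate 2. It rose in endocardial libraries, E17 over E13, by 2.23 ± 0.50 (adjusted p = 0.00526, and 0.0857 without E17 endocardial replicate 2). Its difference of effects was -1.78 ± 0.82 (adjusted p = 0.119, and 0.0225 without E17 coronary replicate 1), and was -3.33 without E17 coronary replicate 1 and -1.01 without E17 coronary replicate 2. Cdh26 gave 1 count in E17 coronary against 35 in E17 endocardial libraries, a CPM ratio of 0.031 with an interval of 0.000764 to 0.185. The edgeR log2 fold change of Cdh26 at E17 was -4.78 ± 1.09 (adjusted p = 0.0027), and its difference from the E13 effect was -4.55 ± 1.29 (adjusted p = 0.0171, and 0.0765 without E17 coronary replicate 1). The only coronary count at E17 was in replicate 2, so without that library no fold can be given. The endocardial stage change of Cdh26 was 1.84 ± 0.61 (adjusted p = 0.0385), and its adjusted p was 0.0513 to 0.192 without E17 endocardial replicate 1 or 2, or E13 endocardial replicate 2, 3 or 4. That p was 0.0619 with DESeq2 and 0.066 with no filter on low counts. The coronary stage value of Cdh26 was -2.72 ± 1.16 (adjusted p = 0.0696, and 0.0294 without E13 coronary replicate 1).

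Cdh23, a long cadherin of the tip links of inner ear hair cells, was an E17 coronary gene. It had 8.23 and 6.77 CPM in E17 coronary against 0.764 and 0.648 CPM in E17 endocardial libraries, and 0.909 ± 0.192 CPM in E13 coronary against 0.924 ± 0.286 CPM in E13 endocardial libraries (SD, n = 4 each). The other 3 groups lay at a like low level. Its coronary effect was 3.39 ± 0.36 at E17 (edgeR adjusted p = 7.14e-06) and -0.03 ± 0.26 at E13 (adjusted p = 0.924), a difference of 3.42 ± 0.44 (adjusted p = 0.000101). Coronary Cdh23 rose by 3.04 ± 0.27 between stages (adjusted p = 2.33e-06). Its tip-link partner Pcdh15 gave 6 counts in all 12 libraries and was not tested.

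Among the 13 genes under 1 CPM, Cdh8, Cdh19 and Pcdh8 were tested. Cdh19, a cadherin of neural crest and Schwann cell precursors, gave 42 counts in E13 coronary libraries and none in E13 endocardial libraries (edgeR adjusted p = 0.00457). That is 15.9-fold a floor of 3 counts over the group, with an exact 95% lower limit of 12.4-fold. The summed level of 9 glial and neural crest markers was 15.04 to 48.6 CPM in E13 coronary against 3.12 to 4.098 CPM in E13 endocardial libraries, and 5.15 to 8.92 CPM in E17 coronary against 2.72 to 3.77 CPM in E17 endocardial libraries. Of these markers, 4 of the 5 that were tested were higher and 1 was lower in E13 coronary libraries. Sox10 and Foxd3, transcription factor genes of that lineage, were nearly silent, with 14 counts of Sox10 and 4 of Foxd3 over all 12 libraries. The part of such cells in the Cdh19 result was not tested. Cdh8, a type II cadherin of the nervous system, gave 74 counts in E13 coronary against 3 in E13 endocardial libraries, a CPM ratio of 28 with an interval of 9.22 to 139 (edgeR adjusted p = 0.000385). Pcdh8, known from somites and synapses, shares 436 exon bases with Gm9748 on the opposite strand, where reads cannot be told apart. It gave 82 counts in E13 coronary against 20 in E13 endocardial libraries, a ratio of 4.66 with an interval of 2.83 to 8.02 (adjusted p = 0.00885), though its groups overlap. Both fell in coronary libraries at E17 against E13, Cdh8 by 3.16 on the log2 scale (adjusted p = 0.0138, and 0.0743 to 0.0944 without E17 coronary replicate 1 or 2) and Pcdh8 by 2.91 (adjusted p = 0.0172, and 0.0824 to 0.112 without E17 coronary replicate 1 or 2). The difference of effects for Pcdh8 was -4.25 ± 1.17 (adjusted p = 0.0149, and 0.05 to 0.0678 without E17 coronary replicate 1 or 2).

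The other 10 genes under 1 CPM were not tested. Cdh9 and Cdh12 gave no count, Cdh1 gave 1, and Cdh7, Cdh15, Cdh16, Cdh17, Cdh18, Cdh22 and Pcdh15 gave 2 to 12 counts each over all 12 libraries. A count of 0 or near it says that the gene was not detectable at this depth. The summed level of 7 epithelial markers, the setting in which Cdh1 is the main cadherin, was at most 2.37 CPM in any library.

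Counted over the 25 tested genes, the E17 coronary comparison called 15 (60%), against 52.6% of all 15171 genes. It called 7 higher (28%) and 8 lower (32%), against 26.5% of all genes higher and 26.1% lower, shares close to the background. With a fold of at least 2 as well, it called 15 of the 25 (60%), against 21.9% of all genes. The median absolute log2 fold change there was 2.31 over 24 genes, against 0.46 over all genes. For it, Cdh6 was set at its ratio to the floor of 3 counts and Cdh8 was left out. At E13, 21 genes (84%) were called, against 60% of all. There 16 genes were higher (64%) and 5 lower (20%), against 30.1% and 29.9% of all genes. With a fold of at least 2, 18 of the 25 (72%) were called at E13, against 18% of all genes, and the median absolute log2 fold change was 2.09 against 0.37. The share of higher calls thus lay above the background at E13 and near it at E17, as a description of genes chosen by name.

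Between stages, coronary libraries at E17 against E13 changed 19 genes (76%), against 50.1% of all. Of these, 7 were higher (28%) and 12 lower (48%), against 24.6% and 25.6% of all genes. The count of lower genes was 6 without E17 coronary replicate 2. With a fold of at least 2, 18 of the 25 were called (72%), against 17.6% of all. The 7 higher genes were Cdh5, Cdh13, Cdh23, Pcdh1, Pcdh12, Pcdh17 and Pcdh19. Endocardial libraries at E17 against E13 changed 11 genes (44%), against 31.8% of all, and 7 (28%) by a fold of at least 2, against 6.86%. They had 7 genes higher (28%) and 4 lower (16%), against 16.2% and 15.6% of all genes, and the count of higher genes was 4 without E17 endocardial replicate 1 and 4 without replicate 2. Here Cdh4, Cdh13, Cdh20, Cdh26, Pcdh9, Pcdh19 and Pcdh20 were higher and Cdh24, Pcdh1, Pcdh12 and Pcdh17 lower. In the same endocardial comparison, 4 of 5 lymphatic markers were higher and 0 lower. Their sum was 187 to 239 CPM at E17 and 43.8 to 53.8 CPM at E13. Of 8 coronary capillary markers, 4 were higher and 1 lower, with sums of 420 to 425 CPM at E17 and 82.8 to 114 CPM at E13. The part of such RNA in the endocardial stage changes was not tested. Both stage comparisons and the E13 and E17 comparisons share libraries. The coronary effect differed between stages for 16 genes (64%), against 32.7% of all. Of them, 5 were higher at E17 (20%) and 11 lower (44%), against 16.2% and 16.5% of all genes.

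The 4 E13 coronary libraries were not alike in these genes. Of 18 genes with a mean of at least 1 CPM there, 9 (50%) were lowest in replicate 1 and highest in replicate 3, against 16.4% of 13103 genes. These were Cdh2, Cdh3, Cdh4, Cdh6, Cdh11, Pcdh9, Pcdh10, Pcdh11x and Pcdh18. Among them Cdh4 alone was lower in E17 coronary replicate 1 than in replicate 2, at -0.40 log2. The opposite order, lowest in replicate 3 and highest in replicate 1, held for 6 of the 18 (33.3%), Cdh5, Cdh13, Pcdh1, Pcdh12, Pcdh17 and Pcdh19, against 20.9% of all. All 10 fibroblast markers had the order of the first set, replicate 3 exceeding replicate 1 by a median of 1.77 log2. Of 9 mural cell markers, 6 had that order and 2 the opposite one (median 1.63). Of 6 endocardial markers, 2 had that order and 0 the opposite one (median 0.41). Cdh11 and Cdh4, both higher in endocardial than in coronary libraries, differed by 0.61 and 0.72 log2. The order of the second set was shared by 7 of 9 endothelial markers (median -0.49) and 6 of 8 coronary capillary markers (median -0.995). Cdh10, Cdh24 and Pcdh7 had neither order. Fibroblast markers were higher in 9 of 10 cases in E13 coronary against endocardial libraries and lower in none, and at E17 higher in 5 and lower in 2. What part of the coronary values came from other cells was not tested.

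**Figure D4:**
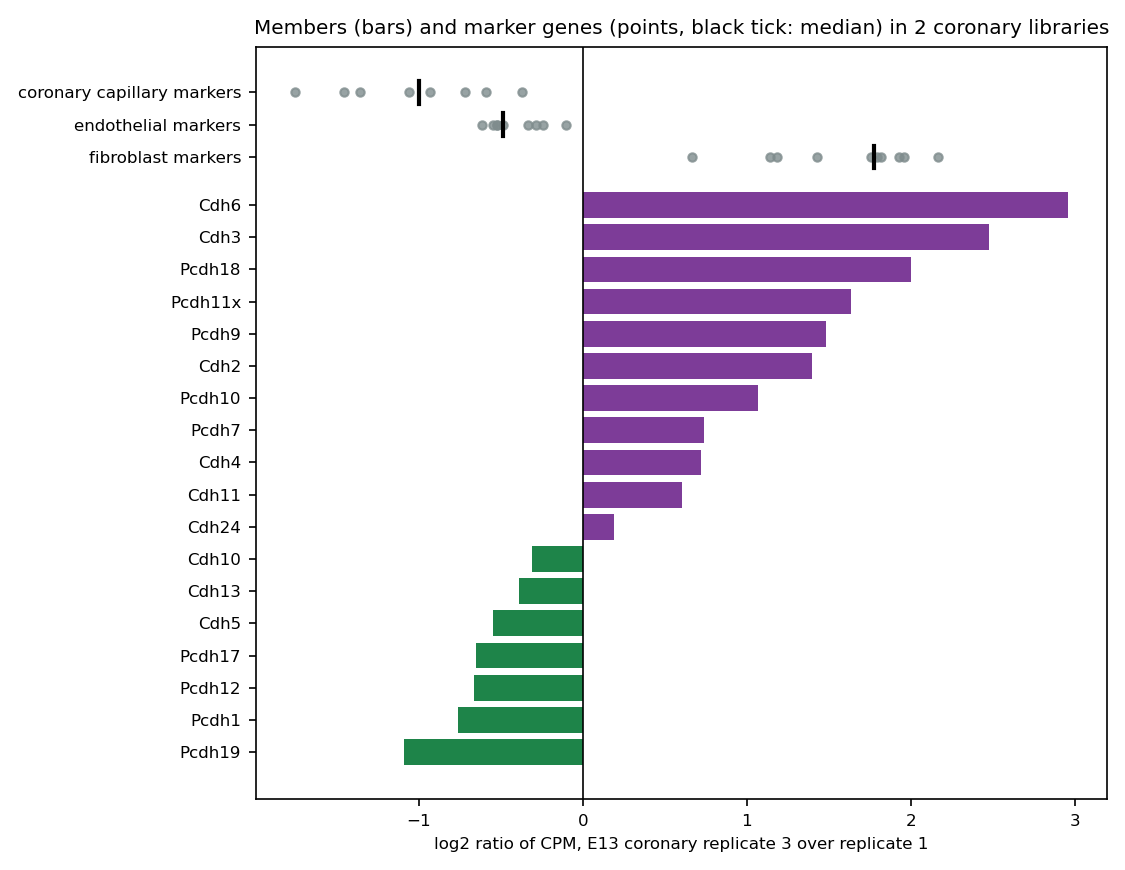
Log2 ratio of CPM in E13 coronary replicate 3 over replicate 1, as bars for the 18 cadherin and protocadherin genes with at least 1 CPM there and as points for fibroblast, endothelial and coronary capillary marker genes, with a black tick at each list's median. Cdh6 and Cdh3 lie above all the fibroblast markers, and Pcdh18, at 2, lies within their range. Cdh5, Pcdh17, Pcdh12, Pcdh1 and Pcdh19 lie below 0, near the endothelial and capillary markers.

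Among the cytoplasmic partners of cadherins, more were higher than lower in coronary libraries. Of 18 genes, all tested, 12 were higher and 2 lower at E17 (median log2 fold change 0.66), and 10 were higher and 5 lower at E13 (median 0.31), against a median near 0 over all genes. Over all genes, 26.5% were higher and 26.1% lower at E17, and 30.1% and 29.9% at E13. Ctnnb1, the gene of beta-catenin, had a coronary effect of 0.35 ± 0.07 at E17 (edgeR adjusted p = 0.00166) and -0.22 ± 0.05 at E13 (adjusted p = 0.00351). Ctnnd1, the gene of p120, and Ctnna1, the gene of alpha-E-catenin, changed sign in the same way, at 0.18 ± 0.05 and 0.28 ± 0.08 at E17 (adjusted p = 0.0153 and 0.00906) and -0.23 ± 0.04 and -0.14 ± 0.05 at E13 (adjusted p = 0.00029 and 0.037). Cdh5 has the same pair of signs, and the differences between stages passed the test, at 1.29 ± 0.16 for Cdh5 (adjusted p = 7.6e-05), 0.57 ± 0.09 for Ctnnb1 (adjusted p = 0.000516), 0.41 ± 0.07 for Ctnnd1 (adjusted p = 0.000645) and 0.42 ± 0.09 for Ctnna1 (adjusted p = 0.00466). The sign change is not particular to these genes. Of the 9 pan-endothelial markers, 6 were higher and 2 lower in coronary libraries at E17 (median 0.39). At E13, 2 were higher and 5 lower (median -0.25). The part of endothelial RNA content in these changes was not tested.

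Ptprb, the gene of the endothelial phosphatase VE-PTP that binds VE-cadherin, was higher in coronary libraries by 1.86 ± 0.11 at E17 (edgeR adjusted p = 7.26e-08) and 1.999 ± 0.08 at E13 (adjusted p = 3.82e-09). Jup, the gene of plakoglobin, was higher by 1.88 ± 0.15 at E17 (adjusted p = 5.22e-07) and 0.64 ± 0.10 at E13 (adjusted p = 0.000137), and Vcl, the gene of vinculin, by 0.92 ± 0.08 at E17 (adjusted p = 1.16e-06) and 0.81 ± 0.06 at E13 (adjusted p = 1.48e-07). Ctnnal1, an alpha-catenin-like gene, was lower, at -3.90 ± 0.24 at E17 (adjusted p = 7.78e-08) and -0.56 ± 0.15 at E13 (adjusted p = 0.00581). Coronary stage comparisons had 10 partners higher and 4 lower, and endocardial ones 4 higher and 4 lower. Of all genes, 24.6% were higher and 25.6% lower in the coronary stage comparison, and 16.2% and 15.6% in the endocardial one.

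Of 8 transcription factor genes known to repress cadherins in other tissues, 4 were higher and 1 lower in coronary libraries at E17, and 6 higher and 2 lower at E13. The shares of all genes called were 26.5% higher and 26.1% lower at E17, and 30.1% higher and 29.9% lower at E13. Twist1 had a coronary value of -0.82 ± 0.56 at E17 (edgeR adjusted p = 0.242) and 3.53 ± 0.36 at E13 (adjusted p = 4.35e-06), a difference of -4.35 ± 0.66 (adjusted p = 0.000358). Snai2 was higher at both stages, by 2.62 ± 0.29 at E17 (adjusted p = 1.13e-05) and 1.51 ± 0.20 at E13 (adjusted p = 3e-05), and Zeb2 lower at both, at -1.02 ± 0.14 at E17 (adjusted p = 4.92e-05) and -0.77 ± 0.09 at E13 (adjusted p = 2.01e-05). Of 11 genes for proteases and convertases that cut cadherins, 3 were higher and 5 lower at E17, and 2 higher and 4 lower at E13. Set against those shares of all genes, the 3 higher at E17 and the 4 lower at E13 lie near the background. Adam10, which sheds VE-cadherin and N-cadherin, was lower, at -0.27 ± 0.06 at E17 (adjusted p = 0.00194) and -0.49 ± 0.04 at E13 (adjusted p = 8.05e-07). Pcsk6, a proprotein convertase, was higher by 4.17 ± 0.32 at E17 (adjusted p = 4.67e-07) and 3.86 ± 0.28 at E13 (adjusted p = 2.39e-07).

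Among the desmosomal cadherins, which hold cardiac muscle and epithelial cells together, 3 of 9 genes were tested, with 2 lower in coronary libraries at E17 and 1 higher and 1 lower at E13. Dsg2 was lower in coronary libraries, at -7.70 ± 0.38 at E17 (edgeR adjusted p = 1.16e-08) and -3.76 ± 0.17 at E13 (adjusted p = 6.2e-09), and so was Dsc2, at -3.96 ± 0.42 at E17 (adjusted p = 7.51e-06), with 0.16 ± 0.24 at E13 (adjusted p = 0.593). Dsg2 had 0.411 and 0.419 CPM in E17 coronary against 84.9 and 90.2 CPM in E17 endocardial libraries, and 5.46, 5.93, 11.6 and 7.84 CPM in E13 coronary against 106, 106, 96.8 and 109 CPM in E13 endocardial libraries. Of 17 other genes of the superfamily, 12 were tested, with 5 higher and 3 lower in coronary libraries at E17 and 4 higher and 3 lower at E13. With so few genes, and with 26.5% of all genes higher and 26.1% lower at E17, and 30.1% and 29.9% at E13, these counts describe the named genes alone. Fat3 was higher by 4.48 ± 0.62 at E17 (adjusted p = 6.18e-05) and 4.54 ± 0.43 at E13 (adjusted p = 2.29e-06). Dchs1, whose product binds Fat4, was higher by 0.78 ± 0.06 at E17 (adjusted p = 6.73e-07), with -0.08 ± 0.04 at E13 (adjusted p = 0.144).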

How the data were processed

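RNA-seq libraries of sorted endothelial cells were grouped by their labels into 4 groups. The deposited table gives expected counts, of which 18.3% are not whole. The submitters' processing notes name build GRCm38 and the tools RSEM 1.2.3, cutadapt 1.3 and CASAVA 1.8.2, with roles not given in the sources used here. Per the labels' protocols the libraries do not mark strand, so overlapping genes on opposite strands share reads. Besides the overlaps given with the results, such genes share 154 exon bases with Pcdh10 and 23 with Cdh8.

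Expected counts were rounded. Genes were kept by filterByExpr (minimum count 10, total 15), and edgeR 4.0.16 in R 4.3.3 fitted 4 group means over all 12 libraries with TMM scaling (8 residual degrees of freedom, common biological coefficient of variation 0.126). The code recovered known fold changes in simulated counts. The 5 comparisons were coronary against endocardial at E17 and at E13, E17 against E13 in each population, and the difference of the coronary effect between stages. Exact intervals use pooled counts and unscaled totals, so they leave out the spread among libraries of a group. Symbols were found for 40254 of 41214 identifiers, and loci and exon lengths come from GENCODE M21 on GRCm38.

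Genes and lists were chosen with earlier results of these data known. The named-gene rule took every gene of the family: those of at least 10 CPM in full, those from 1 to 10 CPM by group, and the rest by counts unless called. The 5 lists of partner genes and 12 lists of cell markers hold 163 entries found in the count table. Ptprb is entered both as a cytoplasmic partner and as an endothelial marker. Alternatives were DESeq2 1.42.0, its size factors, no filter, the 2 groups compared alone, batch as a block, and each library left out. The batch label pairs 1 coronary with 1 endocardial library: their deviations from the group means correlated at 0.293 to 0.561 over 10832 genes in all 6 batches. With 2 libraries in each E17 group, the 2 E17 batches give the same value by construction. Libraries of unlike batches were not correlated, so whether the numbers pair the libraries was not tested. Replicates of a group differed by more than sampling noise, with a chi-square per gene of 4.39 to 39.3.

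Of all genes, 26.5% were higher and 26.1% lower in coronary libraries at E17, and 30.1% and 29.9% at E13. The marker lists other than fibroblast, some also described with the results, gave these counts of tested genes higher and lower in coronary libraries. At E17 they were 6 and 2 of 9 endothelial, 0 and 6 of 6 endocardial, 8 and 0 of 8 capillary, 0 and 1 of 11 cardiomyocyte, 9 and 0 of 10 mural, 5 and 0 of 9 epicardial, 2 and 1 of 5 glial, 0 and 1 of 1 epithelial, 0 and 0 of 6 erythroid, 1 and 2 of 5 leukocyte and 1 and 2 of 5 lymphatic markers. At E13 they were 2 and 5, 0 and 4, 8 and 0, 0 and 1, 6 and 0, 7 and 1, 4 and 1, 0 and 1, 0 and 0, 2 and 0, and 3 and 1 in the same order of lists.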

Additional observations from a re-analysis of the deposited data

Results flagged for a closer look

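The coronary effect on 15 genes of at least 1 CPM differed between the stages by the interaction term of the edgeR fit, and each value is the E17 effect minus the E13 effect on the log2 scale. The effect was more positive at E17 for Cdh23 (3.42), Pcdh17 (2.44), Pcdh12 (2.05), Pcdh1 (1.40) and Cdh5 (1.29). It was more negative at E17 for Cdh3 (-5.20), Pcdh9 (-4.76), Cdh26 (-4.55), Cdh11 (-3.42), Pcdh11x (-2.92), Pcdh7 (-2.26), Cdh2 (-1.997), Pcdh20 (-1.56), Cdh13 (-1.43) and Cdh24 (-1.20). Each library of these comparisons enters both a population and a stage contrast, and genotype, tamoxifen, batch and the sort gates differ between the stages too. For Cdh3 and Cdh5 the effect had opposite directions at the stages, each passing the test, and those calls were lost without single libraries (Cdh3 at E17, Cdh5 at E13).

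In the 4 E13 coronary libraries, Cdh24 in replicate 1 stood apart below the others, its gap to the nearest being 0.847 of the group's range. It was the only such case among 44 groups of 4 libraries examined, and chance gives about 1 in 20.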

How the results depend on the processing

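Over 17 alternatives, 1979 values of the 122 fold changes were compared with the reported ones: 1859 kept their direction and side of the threshold, 61 lost the call, 31 gained it and 28 changed sign. Of 82 called fold changes, 63 kept their call under every alternative that gave a value for them, and none changed sign. The count of genes higher in endocardial libraries at E17 against E13 was 4 without E17 endocardial replicate 1 or 2, against 7, with 4 to 8 over all single libraries left out. The count lower in coronary libraries at E17 against E13 was 6 without E17 coronary replicate 2, against 12, with 6 to 13. Other counts with 1 library left out were 7 to 9 higher and 6 to 9 lower in coronary than in endocardial libraries at E17, 15 to 16 and 4 to 4 at E13, 3 to 5 lower in the endocardial and 7 to 7 higher in the coronary stage comparison, and 5 to 6 and 9 to 12 for the stage difference. With the 2 groups alone, 12 genes were higher at E13, against 16, since Cdh6, Cdh8, Cdh19 and Pcdh8 were then not tested.

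The changes of sign were in values that did not pass the test. Pcdh20 at E13 gave 0.00306 with DESeq2, 0.00821 with its size factors, 0.0108 with the 2 groups alone and -0.0755 to 0.0805 with 1 library left out. In the same way, the coronary effect ranged over -0.25 to 0.42 for Cdh2 and -0.60 to 0.30 for Pcdh10 at E17, and over -0.53 to 0.11 for Cdh26 and -0.15 to 0.20 for Cdh23 at E13. Endocardial stage values ranged over -2.19 to 0.61 for Cdh10, -0.58 to 0.47 for Pcdh18 and -0.14 to 0.0801 for Pcdh7, and coronary ones over -1.09 to 1.21 for Cdh20 and -0.0831 to 0.31 for Cdh4. Stage differences ranged over -0.78 to 0.17 for Cdh6 and -1.95 to 0.85 for Cdh10. The cause was not tested.

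With batch as a block, the fits changed 4 calls, given with Cdh13, Cdh6, Pcdh9 and Pcdh19, and no other call of these genes. The block cannot be used for the stage comparisons, since each batch holds 1 stage. Leaving out an E17 library leaves 1 library in its group, which is then assumed to vary like the other groups. The most that any scaling moved the median of all genes was 0.0281 log2. Pairs of groups with at most 3 counts each gave no value.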
